A study of Arabidopsis thaliana with 32 samples.

Results

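The genes described here are 9 components of pattern-triggered immunity in *Arabidopsis thaliana*, followed through every library of a transcriptome series on sulfur (S) nutrition. They were taken by their AGI identifiers and are 9 of the 37336 genes counted: the receptor FLS2 (AT5G46330), the receptor kinases BAK1 (AT4G33430), CERK1 (AT3G21630) and SOBIR1 (AT2G31880), the cytoplasmic kinase BIK1 (AT2G39660), the oxidases RBOHD (AT5G47910) and RBOHF (AT1G64060), the MAP kinase MPK3 (AT3G45640) and the output gene FRK1 (AT2G19190). In shoots of the q-lsu-KO mutant SOBIR1, BIK1, RBOHD and MPK3 were called higher than in WT shoots under both S conditions. Of all genes tested in shoots, 3.53% were called higher under S deficiency and 3.36% under normal S. The BIK1 difference rested on few counts and was not called by a second program, DESeq2. The BIK1 calls, and that of RBOHD under normal S, were lost without some single libraries. The SOBIR1 call under S deficiency was lost when only the compared libraries were fitted. A list of touch and early stress genes was also higher in q-lsu-KO shoots, and its part in these differences was not tested. None of the members that could be tested was called between the genotypes in roots. Few genes of any kind were called there, 0.157% of all tested genes under S deficiency and 0.163% under normal S.

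Plants sense conserved microbial molecules, and molecules released from their own damaged cells, with receptors at the plasma membrane. FLS2 binds bacterial flagellin, CERK1 is needed for the chitin response, BAK1 is the partner of many receptors that carry leucine-rich repeats and a kinase domain, and SOBIR1 is the partner of receptor-like proteins that lack a kinase domain of their own. The activated complexes phosphorylate BIK1, which phosphorylates RBOHD, the NADPH oxidase that makes the rapid burst of apoplastic reactive oxygen, while a MAP kinase cascade that ends in MPK3 and related kinases leads to the induction of genes such as FRK1. RBOHF is a second leaf oxidase, known for its part in abscisic acid signalling and cell death.

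The series holds 32 libraries of 3′RNA-seq in 8 groups of 4: shoots and roots of q-lsu-KO and WT seedlings, each under S deficiency [dS] and normal S [nS]. WT is the Col-0 ecotype, and q-lsu-KO is a single line of Col-0 origin with deletions in the genes LSU1 to LSU4, small proteins whose transcripts accumulate under S starvation. All seedlings were grown in vitro on half-strength Hoagland medium under short days, stayed on [nS] medium for 10 days, then moved to fresh [dS] or [nS] medium for 5 days, and were 15 days old. The [nS] medium held 1 mM sulfate, and in [dS] medium magnesium chloride stood in for magnesium sulfate. Each RNA came from the shoots or roots of a pool of at least 10 seedlings.

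Library totals ran from 893225 to 2857129 counts. The libraries were sequenced in 4 pools by tissue and S condition, with both genotypes in each, so genotypes were compared within a pool, whereas an S condition, or a tissue, and its pool cannot be told apart. Levels are given as CPM, counts scaled to a common library size, with TMM scaling over all 32 libraries. The summed level of 6 shoot markers was 50919 to 75359 CPM in shoots and 64 to 284 CPM in roots, and that of 6 root markers was 450 to 793 CPM in shoots and 3748 to 5711 CPM in roots. Of the targeted genes, LSU2 had 1.69 to 18.5 CPM in q-lsu-KO libraries and 123 to 531 CPM in WT libraries. The other 3 targeted genes went the other way: LSU1 was called higher in q-lsu-KO in shoots under both conditions and in [nS] roots, LSU3 in [nS] shoots and roots, and LSU4 in shoots under both conditions and in [dS] roots. In [nS] shoots their log2 fold changes were 2.75, 2.28 and 2.56. Where the 3′ tags lie relative to the deletions is not given in the sources used here, so only LSU2 separates the libraries as their labels do. Nothing in the labels says whether replicates are separate plates, so p-values measure the spread between these libraries.

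The 9 genes fell into several patterns over the 8 groups. FLS2 was counted almost only in shoots, where it had 2.72 to 17.6 CPM, against 0 to 0.957 CPM in roots. BAK1, CERK1, BIK1 and RBOHF had their 4 highest group means in roots. MPK3 had its 4 highest means in shoots. SOBIR1 was highest in q-lsu-KO [dS] shoots and lowest in WT [nS] shoots, with all 4 root means between the 3 higher shoot means and that of WT [nS] shoots. RBOHD had its highest means in the q-lsu-KO shoot groups. The orders of SOBIR1 and RBOHD across tissues rest on the TMM factors. Without these factors CPM would be lower in shoots relative to roots by 0.729 on the log2 scale. FRK1 was at 0 to 9.65 CPM, or 0 to 13 counts, in every library and entered no fitted test.

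**Figure D1:**
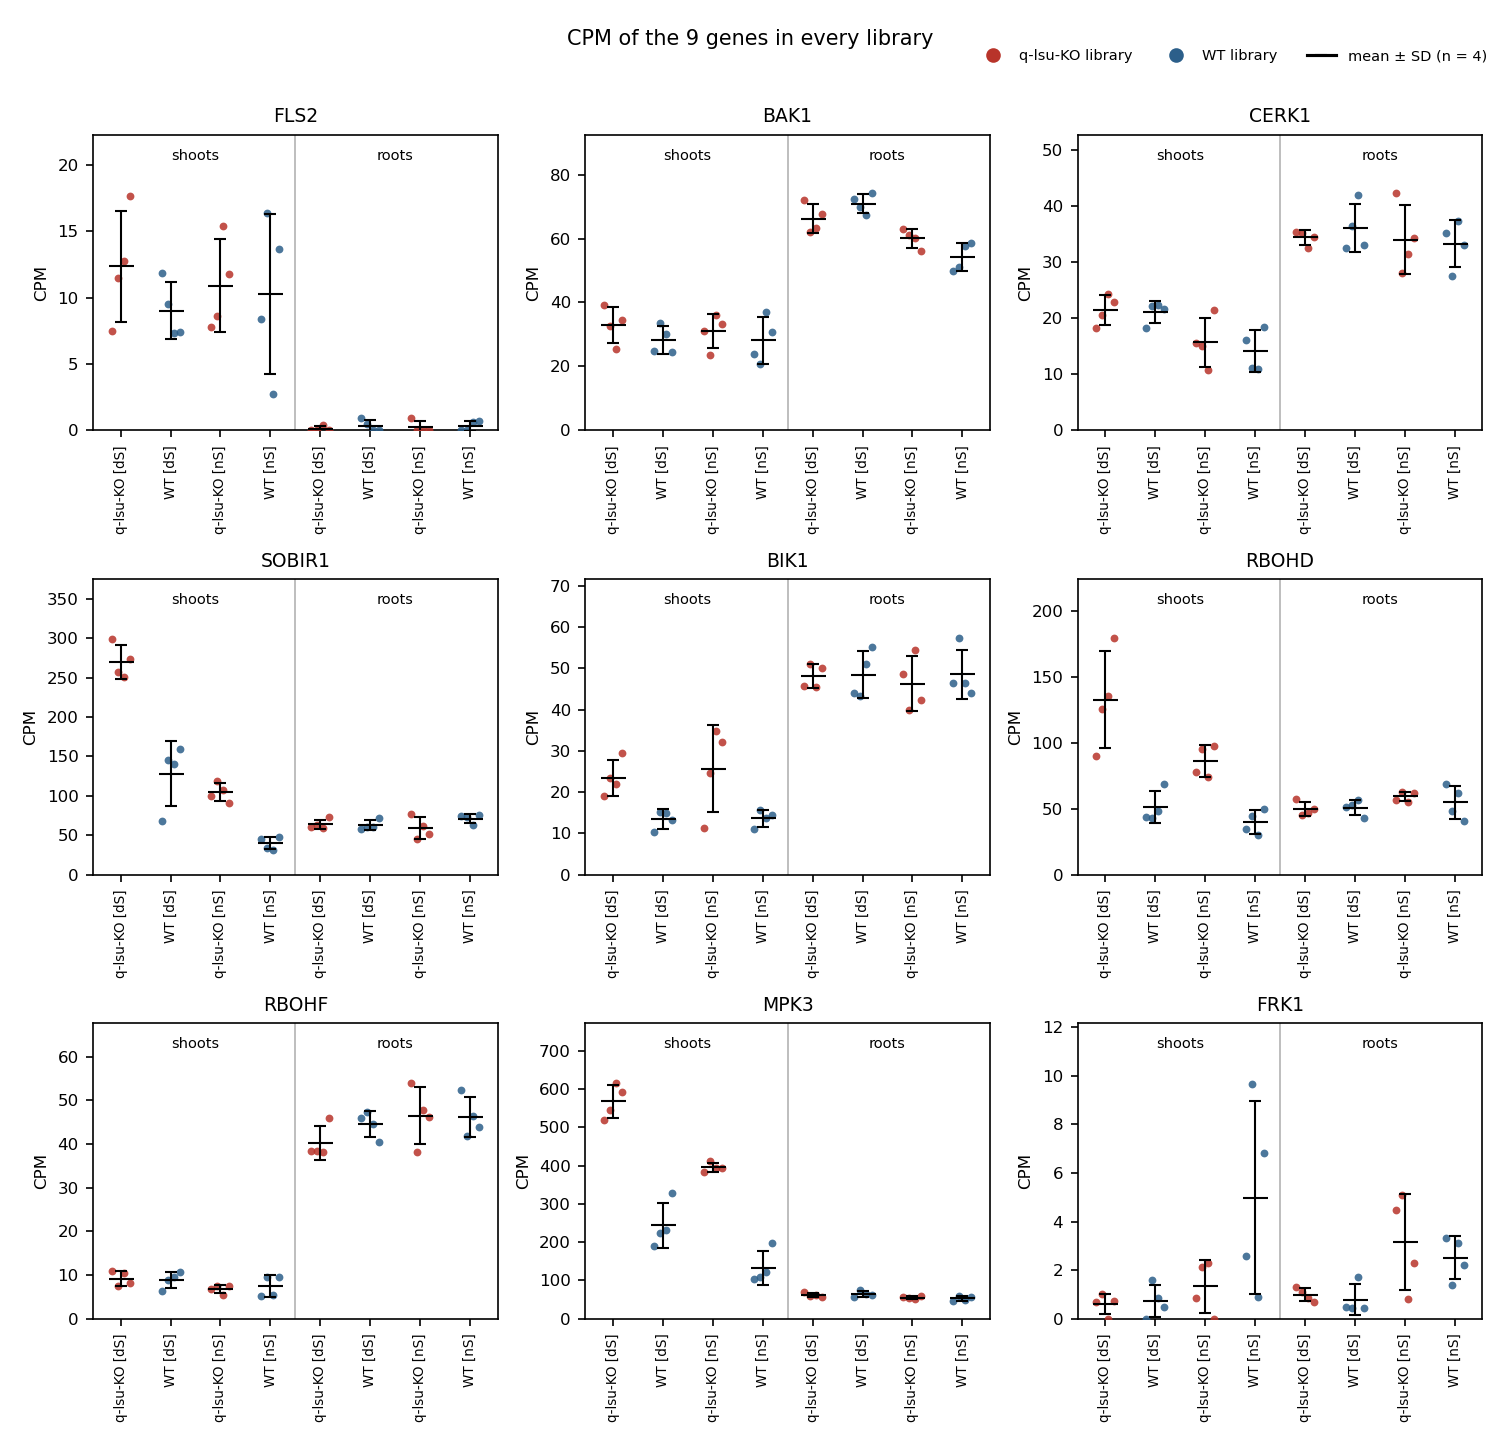
CPM (TMM-scaled, y axis, starting at 0) of each of the 9 genes in every library, shoots to the left of the grey line and roots to the right, with q-lsu-KO in red and WT in blue. Black bars are the mean ± SD of 4 libraries. SOBIR1, RBOHD and MPK3 separate the genotypes in shoots and not in roots, RBOHF, BAK1, CERK1 and BIK1 are higher in roots, and FLS2 is close to 0 in roots.

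The first question was how these transcripts differ between the q-lsu-KO line and WT in shoots. The fit was edgeR's quasi-likelihood model over all genes of a tissue, and a call needed both an adjusted p (Benjamini-Hochberg) under 0.05 and a change of more than 1.5-fold. Of the 8 members with enough counts to be tested in shoots, 4 were called higher in the mutant under [dS] and 4 under [nS], the same genes in both, and none was called lower. The background over 14593 tested genes was 3.53% called higher under [dS] and 3.36% under [nS]. Calls were 515 higher and 93 lower under [dS] and 490 higher and 214 lower under [nS], and with upper-quartile scaling 453 and 160 under [dS] and 428 and 298 under [nS]. The median log2 fold change of the 8 was 0.61 under [dS] and 0.54 under [nS], against -0.02 and -0.01 over all tested genes. The members were chosen with earlier results of these data known, so their excess over all tested genes cannot be read as enrichment.

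MPK3, the kinase at the end of the cascade, had 519, 544, 614 and 592 CPM in q-lsu-KO [dS] shoots, against 191, 224, 231 and 329 CPM in WT [dS] shoots. It had 384, 411, 394 and 392.3 CPM in q-lsu-KO [nS] shoots, against 103, 109, 122 and 197 CPM in WT [nS] shoots. The genotypes did not overlap under either condition, and even the q-lsu-KO [nS] libraries lay above all WT [dS] libraries. Within each WT group the highest value was in replicate 4, and the 4 q-lsu-KO [nS] libraries lay within a narrow band. The log2 fold change was 1.21 ± 0.19 (SE) under [dS] (edgeR adjusted p = 0.00175) and 1.56 ± 0.20 under [nS] (adjusted p = 3.37e-04).

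SOBIR1, the partner kinase of receptor-like proteins, had 299, 258, 250.4 and 273 CPM in q-lsu-KO [dS] shoots, against 67.8, 146, 140.5 and 159 CPM in WT [dS] shoots. Under [nS] it had 100.3, 119, 108 and 91.1 CPM in q-lsu-KO shoots, against 45.0, 34.2, 31.7 and 47.1 CPM in WT shoots. The genotypes did not overlap under either condition, and replicate 1 of WT [dS] stood well under the other WT [dS] libraries. SOBIR1 in q-lsu-KO [nS] shoots overlapped WT [dS] shoots. The log2 fold change was 1.06 ± 0.20 under [dS] (edgeR adjusted p = 0.00665) and 1.38 ± 0.26 under [nS] (adjusted p = 0.00541). Fitted on the 8 libraries of the [dS] comparison alone, the SOBIR1 difference was 1.08 with an adjusted p of 0.0778.

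RBOHD, the oxidase of the reactive oxygen burst, had 90.04, 126, 136 and 179 CPM in q-lsu-KO [dS] shoots, against 43.6, 43.2, 48.5 and 68.8 CPM in WT [dS] shoots. Under [nS] it had 77.8, 95.5, 74.0 and 97.5 CPM in q-lsu-KO shoots, against 34.7, 44.6, 29.9 and 49.9 CPM in WT shoots. The lowest q-lsu-KO library was above the highest WT library in both pairs of groups, with a wide spread among q-lsu-KO [dS] libraries. The log2 fold change was 1.36 ± 0.21 under [dS] (edgeR adjusted p = 0.00139) and 1.08 ± 0.24 under [nS] (adjusted p = 0.0152). The [nS] call was lost without replicate 1 of WT (adjusted p = 0.0591) or without replicate 4 of q-lsu-KO (adjusted p = 0.0529).

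BIK1, the kinase that acts on RBOHD, was called by edgeR and not by DESeq2. It had 19.0, 23.5, 22.0 and 29.4 CPM in q-lsu-KO [dS] shoots, against 10.2, 15.3, 15.0 and 13.3 CPM in WT [dS] shoots, with no overlap. Under [nS] it had 11.2, 24.7, 34.7 and 32.2 CPM in q-lsu-KO shoots, against 10.9, 15.6, 13.6 and 14.3 CPM in WT shoots. Replicate 1 of q-lsu-KO [nS] lay within the WT range and the other 3 lay above it. The log2 fold change was 0.78 ± 0.22 under [dS] (edgeR adjusted p = 0.029) and 0.91 ± 0.25 under [nS] (adjusted p = 0.0185). DESeq2 gave adjusted p-values of 0.0988 under [dS] and 0.0531 under [nS]. These values rest on 13 to 47 counts a library, and the [dS] call was lost without replicate 1 of WT (adjusted p = 0.115) or without replicate 2, 3 or 4 of q-lsu-KO (adjusted p = 0.0649, 0.0543 and 0.148), and the [nS] call without replicate 1 of WT (adjusted p = 0.0872) or without replicate 3 or 4 of q-lsu-KO (adjusted p = 0.172 and 0.0805).

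The other members tested in shoots were not called between the genotypes. The flagellin receptor FLS2 had 7.45 to 17.6 CPM in q-lsu-KO [dS] shoots, against 7.30 to 11.8 CPM in WT [dS] shoots, and 7.78 to 15.4 CPM in q-lsu-KO [nS] shoots, against 2.72 to 16.3 CPM in WT [nS] shoots. FLS2 had only 3 to 24 counts in a shoot library, so its log2 fold change, 0.44 ± 0.31 under [dS] and 0.06 ± 0.35 under [nS], is loosely bounded. BAK1, the shared partner, differed by 0.23 ± 0.17 on the log2 scale under [dS] and by 0.17 ± 0.19 under [nS]. For CERK1 of the chitin receptor complex these values were -0.01 ± 0.19 and 0.09 ± 0.24. RBOHF, the other oxidase, differed by -0.01 ± 0.27 under [dS] and by -0.16 ± 0.34 under [nS], with 5.40 to 10.8 CPM in q-lsu-KO shoots and 5.14 to 10.8 CPM in WT shoots. RBOHD was called in shoots and RBOHF was not, but the difference between the responses of these oxidases was not tested.

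**Figure D2:**
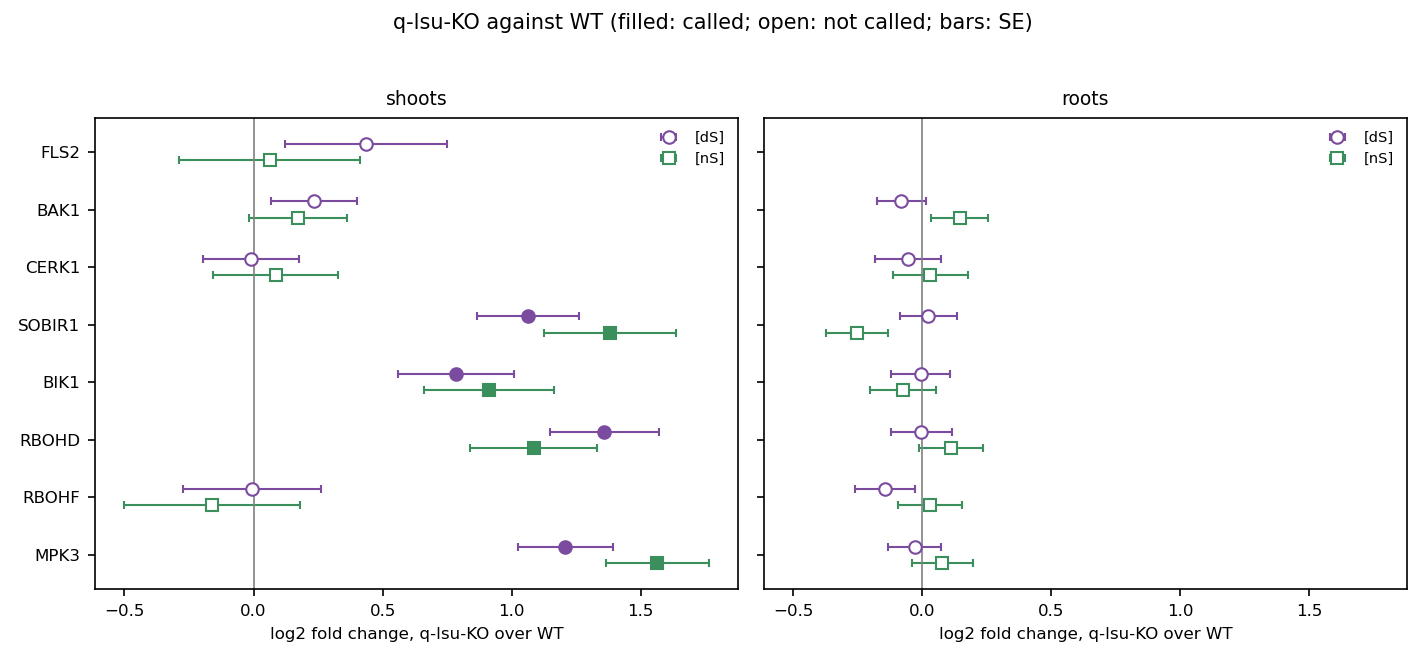
Log2 fold change of q-lsu-KO over WT (x axis) with its SE for each tested member, shoots on the left and roots on the right, with circles for [dS] and squares for [nS]. Filled symbols passed the adjusted p and fold thresholds. In shoots SOBIR1, BIK1, RBOHD and MPK3 lie between 0.78 and 1.56 under both conditions, and in roots the tested members lie between -0.25 and 0.15.

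A list of 18 touch and early stress genes, which respond within minutes to handling, moved with the shoot genotype. Its summed level was 2652 to 3890 CPM in q-lsu-KO [dS] shoots, against 238 to 1984 CPM in WT [dS] shoots, and 2469 to 2832 CPM in q-lsu-KO [nS] shoots, against 182 to 1259 CPM in WT [nS] shoots. Of its 17 tested genes, 6 were called higher in q-lsu-KO under [dS] and 3 under [nS], and 17 had a positive log2 fold change under each condition. In roots the sum was 469 to 609 CPM in all 16 libraries. In both WT shoot groups replicate 1 had the lowest sum and replicate 4 the highest, and SOBIR1, MPK3 and RBOHD in [dS] and in [nS] were also highest in replicate 4, with SOBIR1 and MPK3 under [dS] and MPK3 under [nS] lowest in replicate 1. Replicate 4 of WT [dS] had a score of 0.83, above those of 2 of the q-lsu-KO [nS] libraries (0.22 and 0.72), and held 159 CPM of SOBIR1, above all q-lsu-KO [nS] libraries, 68.8 and 329 CPM of RBOHD and MPK3, under all of them, and 13.3 CPM of BIK1, under all but 1. The part of these genes in the differences of the members was not tested.

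Without both WT shoot libraries numbered 1, an alternative chosen after the data were seen, SOBIR1 and MPK3 were still called under both conditions and RBOHD under [dS], whereas the adjusted p was 0.0701 for RBOHD under [nS] and 0.0768 and 0.111 for BIK1 under [nS] and [dS]. MPK3 was called in both comparisons under every alternative that was run, and SOBIR1 under [nS] and RBOHD under [dS] likewise.

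**Figure D3:**
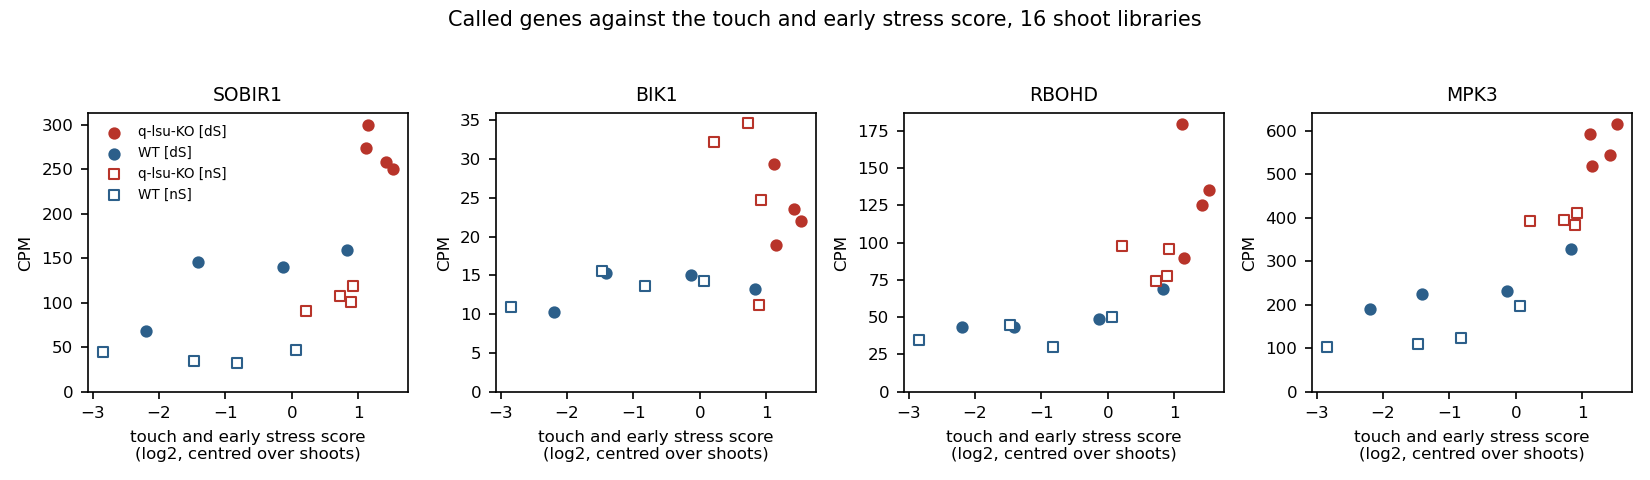
CPM (y axis, starting at 0) of the 4 called genes in the 16 shoot libraries against the touch and early stress score (x axis, mean log2 CPM of 18 genes, centred over shoots), with q-lsu-KO in red and WT in blue, filled circles for [dS] and open squares for [nS]. The score runs from 0.22 to 1.53 in q-lsu-KO and from -2.85 to 0.83 in WT, and within each WT group SOBIR1, RBOHD and MPK3 are highest in replicate 4, the library with the highest score.

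The called genes BIK1, RBOHD and MPK3, and BAK1, which was not called, are shown here by the 250 bases before their annotated starts, read from the TAIR10.1 genome on each gene's own strand, because the members that moved together can be compared for shared promoter letters. Capitals mark the W box, the letters TTGACC or TTGACT on either strand, which WRKY factors bind.
BIK1 (AT2G39660): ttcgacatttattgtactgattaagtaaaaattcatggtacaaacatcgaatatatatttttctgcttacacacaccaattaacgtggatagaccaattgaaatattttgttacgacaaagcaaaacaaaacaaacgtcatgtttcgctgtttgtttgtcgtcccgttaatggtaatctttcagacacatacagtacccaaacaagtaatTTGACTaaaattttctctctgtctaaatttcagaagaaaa
RBOHD (AT5G47910): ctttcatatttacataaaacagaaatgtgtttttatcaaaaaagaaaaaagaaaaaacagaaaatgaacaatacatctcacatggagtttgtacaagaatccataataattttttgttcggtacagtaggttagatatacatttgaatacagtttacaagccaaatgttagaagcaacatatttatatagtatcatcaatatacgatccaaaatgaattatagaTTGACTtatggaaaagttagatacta
MPK3 (AT3G45640): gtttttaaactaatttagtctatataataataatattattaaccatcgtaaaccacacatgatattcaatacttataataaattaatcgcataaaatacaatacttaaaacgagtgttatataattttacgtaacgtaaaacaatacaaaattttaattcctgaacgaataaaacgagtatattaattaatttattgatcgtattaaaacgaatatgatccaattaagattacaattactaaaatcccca
BAK1 (AT4G33430): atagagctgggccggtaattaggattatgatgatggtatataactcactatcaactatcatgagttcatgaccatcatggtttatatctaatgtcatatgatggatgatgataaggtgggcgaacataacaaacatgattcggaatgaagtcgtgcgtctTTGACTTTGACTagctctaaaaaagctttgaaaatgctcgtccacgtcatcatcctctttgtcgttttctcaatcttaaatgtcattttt
The windows are chr2:16531277-16531526 (+) for BIK1, chr5:19396791-19397040 (+) for RBOHD, chr3:16756321-16756570 (+) for MPK3 and chr4:16090833-16091082 (-) for BAK1. A W box stood in 5 of the 8 members' windows examined and in 28.4% of the 27437 windows of protein-coding genes. Over 1000 bases it stood in 6 of the 8 and in 67.3% of all windows. Of the called genes shown, BIK1 and RBOHD held 1 each, at 40 and 26 bases before the start, and MPK3 held none. Of the other members, BAK1 held 2 in a row, CERK1 held 1 and FRK1, which entered no fitted test, held 2. The core of the rapid stress response element (CGCGTT) and the G box (CACGTG) were in none of the 8 windows, against 2.59% and 6.49% of all windows, and the core of the sulfur-responsive element (GAGAC) was in 1, that of CERK1, against 25.8%. Over 1000 bases these motifs were in 1, 2 and 5 of the 8, against 8.66%, 14.8% and 71.8% of all windows. These matches are descriptions of letters and not sites of binding.

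In the TAIR10.1 annotation SOBIR1 is a gene of 1 exon (chr2:13554870-13556977), BIK1 has 6 exons (chr2:16531527-16533986), RBOHD has 8 (chr5:19397041-19402061) and MPK3 has 6 (chr3:16756571-16758874), all on the plus strand. The last 500 bases of SOBIR1 overlap AT2G31890 on the other strand, which had 26.5 to 54.4 CPM in shoots, and AT3G45650, next to MPK3 on the same strand, had 4.46 to 18.5 CPM in shoots. The mean of AT2G31890 was 31.75 CPM in q-lsu-KO [dS] shoots, against 29.97 CPM in WT [dS] shoots. Under [nS] it was 44.61 CPM in q-lsu-KO shoots, against 44.75 CPM in WT shoots. The last 500 bases of FLS2, BAK1 and FRK1 also overlap a gene on the other strand. That of BAK1, AT4G33420, had 2.32 to 6.43 CPM in shoots and 67.0 to 120.7 CPM in roots. It was thus higher in roots, as BAK1 was. Between [nS] and [dS] roots the means of AT4G33420 and BAK1 moved in opposite directions. In WT roots AT4G33420 had a mean of 76.18 CPM under [dS] and 110.1 CPM under [nS], against 70.96 and 54.31 CPM for BAK1. In q-lsu-KO roots these means were 78.15 and 103.5 CPM, against 66.20 and 60.04 CPM for BAK1. The partner of FLS2, AT5G46340, had 14.35 to 27.24 CPM in roots, where FLS2 had at most 0.957 CPM. Whether the counting used strand is not given in the sources used here, so reads of such partners cannot be told apart. The part of these partners in the levels of the members was not tested.

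Other genes of the pathway gave a context for the members in shoots. Among 13 further pattern receptors, 11 were tested, 2 were called higher in q-lsu-KO under [dS] and 2 under [nS], and none lower. LYK5, the main chitin-binding partner of CERK1, was higher by 1.19 ± 0.20 on the log2 scale under [dS] (edgeR adjusted p = 1.03e-04) and by 1.5 ± 0.36 under [nS] (adjusted p = 0.00507). The Pep receptor PEPR1 was called under [dS] (0.82 ± 0.18) and LYK4, a relative of LYK5, under [nS] (1.58 ± 0.42). CERK1 itself was not called, as given above.

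Of 8 tested coreceptors and their regulators, 2 were called higher under [dS] and 1 under [nS]. BIR1, a receptor kinase that binds BAK1 and restrains SOBIR1-dependent defense, was higher by 0.87 ± 0.12 on the log2 scale under [dS] (edgeR adjusted p = 4.91e-06) and by 0.94 ± 0.18 under [nS] (adjusted p = 4.03e-04). SERK4, the closest relative of BAK1, was called under [dS] (0.74 ± 0.21) and had 0.61 ± 0.27 under [nS]. Of 12 cytoplasmic kinases, 3 were called higher under each condition. CPK28, which promotes the turnover of BIK1, was higher by 2.11 ± 0.29 under [dS] and by 1.95 ± 0.35 under [nS], and CPK4, a calcium-dependent kinase, by 0.72 ± 0.16 and 1.04 ± 0.20. PBL1, the closest relative of BIK1, was called under [nS] (0.69 ± 0.20) and PCRK1 under [dS] (1.17 ± 0.18).

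Of 10 other MAP kinase cascade genes, 0 were called under [dS], with 2 at an unadjusted p under 0.05, and MEKK1 was called under [nS] (0.71 ± 0.23). Of the 7 negative regulators, 4 were tested, and the ubiquitin ligase PUB23 was called under both conditions (1.35 ± 0.23 under [dS] and 1.41 ± 0.28 under [nS]). Of 8 other early output genes, 4 were tested, of which WRKY22 was called under both conditions (1.96 ± 0.36 under [dS] and 2.30 ± 0.39 under [nS]) and PHI1 under [nS] (2.60 ± 0.51). No gene of these lists was called lower in q-lsu-KO shoots. None of the 8 other RBOH oxidases had enough counts to be tested in shoots, so RBOHD and RBOHF were the only members of the family tested there.

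**Figure D4:**
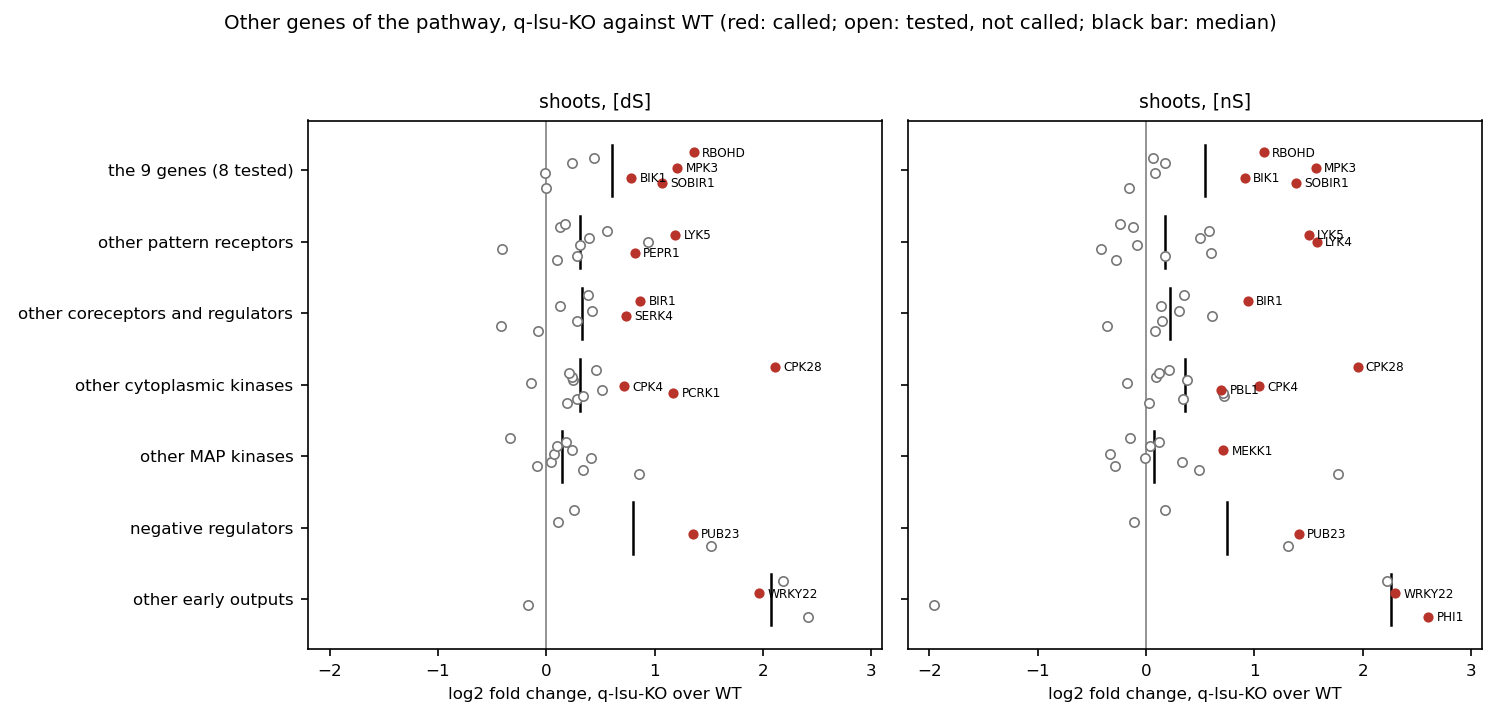
Log2 fold change of q-lsu-KO over WT (x axis) in shoots for each tested gene of the 9 and of 6 other lists of the pathway, [dS] on the left and [nS] on the right. Red points were called, open points were tested and not called, and black bars are medians. All called genes of these lists lie to the right of 0.

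In roots the same comparison gave a different picture. FLS2 and FRK1 were too low to be tested there, and 0 of the other 7 members were called under [dS] or [nS] by edgeR or by DESeq2. At an unadjusted p under 0.05 there were 0 under [dS] and 1 under [nS], SOBIR1, at -0.25 ± 0.12 on the log2 scale. The background was also low, with 0.157% of 15971 tested genes called in either direction under [dS] and 0.163% under [nS].

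MPK3 had 68.9, 58.1, 62.8 and 55.5 CPM in q-lsu-KO [dS] roots, against 55.5, 73.9, 64.4 and 61.7 CPM in WT [dS] roots. SOBIR1 had 60.3, 63.0, 58.5 and 72.4 CPM in q-lsu-KO [dS] roots, against 57.4, 60.2, 60.5 and 72.2 CPM in WT [dS] roots. RBOHD had 57.3, 45.5, 46.8 and 50.1 CPM in q-lsu-KO [dS] roots, against 51.2, 52.4, 56.6 and 43.0 CPM in WT [dS] roots. The genotypes overlapped for the 7 tested members in both S conditions, and their SEs of 0.09 to 0.14 on the log2 scale were smaller than in shoots. FLS2 and FRK1 overlapped too, at only 0 to 2 and 1 to 10 counts a root library. The share of all genes that overlapped in this way was not computed. BIK1, with a log2 fold change of -0.01 ± 0.11 under [dS] and -0.07 ± 0.13 under [nS], was counted at 45.5 to 51.0 CPM in q-lsu-KO [dS] roots, against 43.3 to 55.2 CPM in WT [dS] roots.

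The difference between the shoot and root genotype effects was tested in a model of all 32 libraries. Under [dS] it was called for 3 of 8 tested members, SOBIR1 (1.06 ± 0.24 on the log2 scale, edgeR adjusted p = 0.0156), RBOHD (1.39 ± 0.25, adjusted p = 0.00156) and MPK3 (1.26 ± 0.22, adjusted p = 0.00152), with 1.6% of all 17918 tested genes called higher. Under [nS] it was called for SOBIR1 (1.65 ± 0.29, adjusted p = 0.00145), MPK3 (1.51 ± 0.25, adjusted p = 6.79e-04) and BIK1 (1.00 ± 0.27, adjusted p = 0.0271), with 1.39% of all genes called higher. RBOHD under [nS] (0.99 ± 0.28, adjusted p = 0.0695) and BIK1 under [dS] (0.81 ± 0.24, adjusted p = 0.0593) were not called, and DESeq2 gave 0.0217 for RBOHD under [nS]. The BIK1 call under [nS] was lost without any 1 of 7 of the 16 libraries of that comparison, replicates 1 and 3 of WT shoots, 3 and 4 of q-lsu-KO shoots, 2 of WT roots and 2 and 4 of q-lsu-KO roots (adjusted p from 0.0502 to 0.234), and the SOBIR1 call under [dS] without replicate 4 of WT roots (adjusted p = 0.0517). The touch and early stress sums given above moved with genotype in shoots and not in roots.

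The second question was how S deficiency bears on the same genes. In shoots 2 of the 8 tested members were called higher under [dS] than under [nS] in q-lsu-KO and 2 in WT, and 0 lower. The background was 6.62% of genes called higher in q-lsu-KO shoots and 6.18% in WT shoots. SOBIR1 was called in both genotypes and the other call differed, RBOHD in q-lsu-KO and MPK3 in WT. Since each S condition was 1 pool, the pool cannot be told apart from the treatment in these values.

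SOBIR1 had 250.4 to 299 CPM in q-lsu-KO [dS] shoots, against 91.1 to 119 CPM in q-lsu-KO [nS] shoots, and 67.8 to 159 CPM in WT [dS] shoots, against 31.7 to 47.1 CPM in WT [nS] shoots. The [dS] libraries lay above the [nS] libraries in both genotypes. The log2 fold change was 1.37 ± 0.21 in q-lsu-KO (edgeR adjusted p = 4.00e-04) and 1.69 ± 0.24 in WT (adjusted p = 1.56e-04). The 4 groups thus stood in the order q-lsu-KO [dS], WT [dS], q-lsu-KO [nS] and WT [nS], in which only the middle pair overlapped.

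MPK3 differed between [dS] and [nS] by 0.52 ± 0.18 on the log2 scale in q-lsu-KO shoots (edgeR adjusted p = 0.0628) and by 0.88 ± 0.20 in WT shoots (adjusted p = 0.00563). Its q-lsu-KO libraries did not overlap, at 519 to 614 CPM under [dS] and 384 to 411 CPM under [nS], whereas those of WT did. Each WT [dS] library still lay above the WT [nS] library of the same number, a pairing that the main fit did not use. With only the 8 WT libraries in the fit the adjusted p of MPK3 was 0.0646. For RBOHD the values were 0.63 ± 0.21 in the mutant (edgeR adjusted p = 0.0495) and 0.36 ± 0.24 in WT (adjusted p = 0.343). The RBOHD call was lost without any 1 of 7 of the 8 q-lsu-KO libraries, all but replicate 1 of [dS] (adjusted p from 0.0602 to 0.140).

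CERK1 had 18.3 to 24.3 CPM in q-lsu-KO [dS] shoots, against 10.8 to 21.4 CPM in q-lsu-KO [nS] shoots, and 18.3 to 22.3 CPM in WT [dS] shoots, against 10.9 to 18.4 CPM in WT [nS] shoots. Its log2 fold change was 0.46 ± 0.22 in q-lsu-KO (edgeR adjusted p = 0.141) and 0.56 ± 0.20 in WT (adjusted p = 0.0383), the WT value being under the fold threshold. CERK1 was called in WT without replicate 1 of [dS] (0.63, edgeR adjusted p = 0.027). It was also called without replicate 1 or 4 of WT [nS] (0.62 and 0.71, adjusted p = 0.0453 and 0.0202). Without both WT libraries numbered 1 it was called too (0.68, adjusted p = 0.0356). BIK1 did not follow the S supply, with -0.12 ± 0.23 in q-lsu-KO and 0.00 ± 0.25 in WT. FLS2 (0.14 ± 0.34 and -0.24 ± 0.32), BAK1 (0.10 ± 0.18 and 0.04 ± 0.17) and RBOHF (0.42 ± 0.33 and 0.26 ± 0.28), in q-lsu-KO and in WT, were not called either.

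The interaction of genotype and S supply, the difference between the S effects in q-lsu-KO and WT, was called for 0 of 8 members in shoots and 0 of 7 in roots by edgeR and by DESeq2, with 0 at an unadjusted p under 0.05 in either tissue. Of all tested genes, 0.425% were called in shoots and 0.025% in roots. The shoot values were -0.36 ± 0.27 on the log2 scale for MPK3, -0.32 ± 0.32 for SOBIR1, 0.27 ± 0.32 for RBOHD and -0.13 ± 0.34 for BIK1, which leaves differences of either sign within 2 SE.

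**Figure D5:**
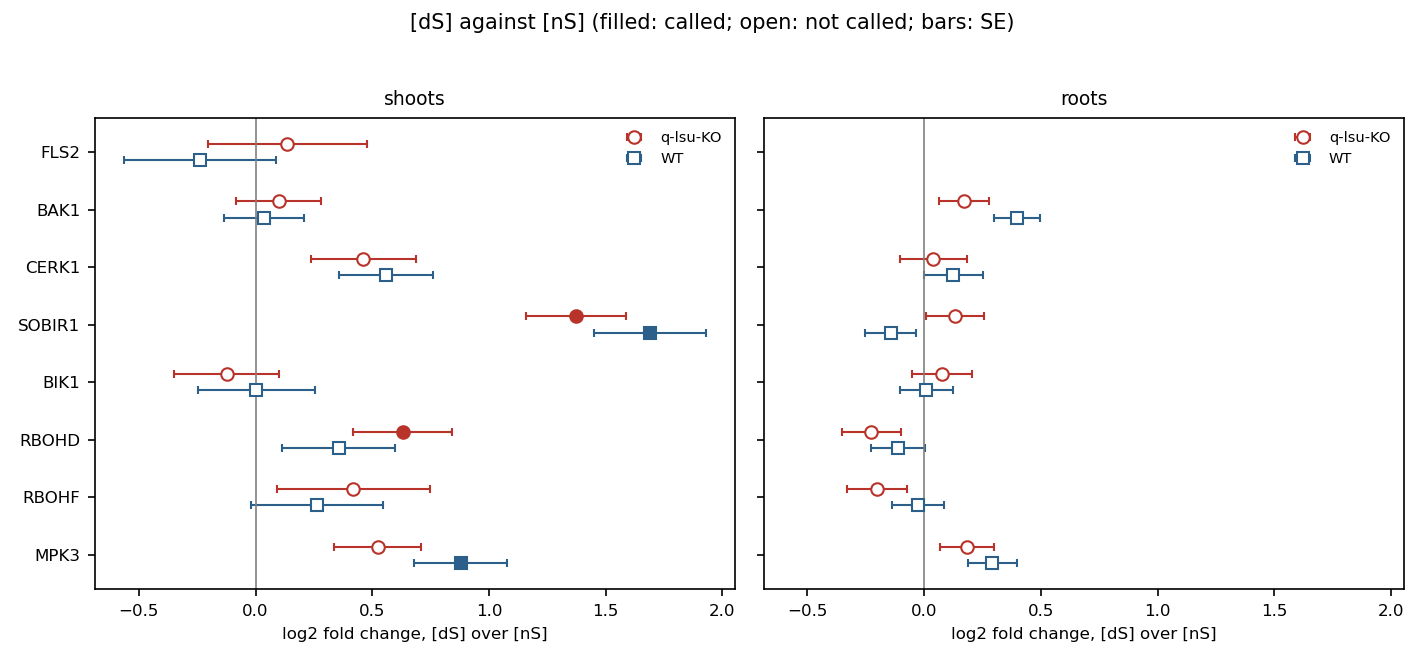
Log2 fold change of [dS] over [nS] (x axis) with its SE for each tested member, shoots on the left and roots on the right, with red circles for q-lsu-KO and blue squares for WT. Filled symbols passed the adjusted p and fold thresholds: SOBIR1 in both genotypes, RBOHD in q-lsu-KO and MPK3 in WT, all in shoots.

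Further receptors and kinases were called in the shoot S comparison. LYK5 was higher under [dS] by 1.35 ± 0.24 on the log2 scale in q-lsu-KO and by 1.66 ± 0.31 in WT, and LYM2, a chitin-binding protein of plasmodesmata, by 1.28 ± 0.17 and 0.89 ± 0.16. RLP23, a receptor-like protein that signals through SOBIR1 and BAK1, was higher by 3.87 ± 0.66 in q-lsu-KO (edgeR adjusted p = 6.45e-04) and by 3.98 ± 0.68 in WT (adjusted p = 5.18e-04), with 16 to 66 counts a library under [dS] in each genotype and 0 to 4 under [nS]. BIR1 was higher by 1.41 ± 0.14 in q-lsu-KO and by 1.49 ± 0.16 in WT. In all, 3 of 11 other pattern receptors were called higher and 1 lower in q-lsu-KO shoots, and 4 higher and 1 lower in WT shoots, with LYM3 the lower gene in both.

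Of the 12 cytoplasmic kinases 4 were called higher in q-lsu-KO shoots and 5 in WT shoots, among them PBL1 (0.87 ± 0.17 and 1.05 ± 0.17) and the calcium-dependent kinase CPK6 (0.78 ± 0.22 and 1.15 ± 0.23), and 1, CPK11, was called lower in WT. Of the 10 other MAP kinase genes 3 were called higher in each genotype, MKK1 (1.26 ± 0.20 in q-lsu-KO and 1.20 ± 0.18 in WT), MKK4 (0.83 ± 0.25 and 0.99 ± 0.25), which phosphorylates MPK3, and MPK11 (2.28 ± 0.49 and 3.19 ± 0.66), which had 0 to 3 counts a library under [nS]. The early output genes did not rise in this way. Of 4 tested, PHI1 was called lower in q-lsu-KO shoots (-1.60 ± 0.45, edgeR adjusted p = 0.0215), and none was called in WT shoots. Log2 fold changes were negative for 3 of the 4 and positive for 1 in each genotype, with medians of -0.33 in q-lsu-KO and -0.14 in WT. The touch and early stress list had 1 of 17 genes called higher in q-lsu-KO and 0 in WT in this comparison, with 2 and 0 at an unadjusted p under 0.05. Its log2 fold changes were positive for 16 of 17 genes in q-lsu-KO (median 0.47) and for 17 of 17 in WT (median 0.66), and its part in the S differences was not tested.

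In roots 0 of 7 members were called between [dS] and [nS] in q-lsu-KO or in WT by edgeR or by DESeq2, with 0 and 2 at an unadjusted p under 0.05. The background was 6.15% of genes called in either direction in q-lsu-KO roots and 6.82% in WT roots. BAK1 had 61.9 to 71.9 CPM in q-lsu-KO [dS] roots, against 56.0 to 62.9 CPM in q-lsu-KO [nS] roots, and 67.4 to 74.4 CPM in WT [dS] roots, against 49.8 to 58.5 CPM in WT [nS] roots. The WT groups did not overlap, and the log2 fold change of BAK1 was 0.40 ± 0.10 (edgeR adjusted p = 0.00219), under the fold threshold, against 0.17 ± 0.11 in q-lsu-KO. MPK3 differed by 0.18 ± 0.12 in q-lsu-KO roots and by 0.29 ± 0.11 in WT roots (adjusted p = 0.0534).

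Other genes of the pathway fell in roots under [dS]. RBOHC, the oxidase of root hair growth, fell by 0.79 on the log2 scale in q-lsu-KO (SE 0.15, edgeR adjusted p = 1.08e-04) and by 0.79 in WT (SE 0.14, adjusted p = 1.35e-05), as the only call among the 6 tested of 8 other RBOH oxidases, whereas RBOHD and RBOHF were not called. Of 7 tested early output genes, 3 were called lower in q-lsu-KO roots and 4 in WT roots. The peroxidase gene PER4 fell by 2.52 on the log2 scale in q-lsu-KO and by 2.59 in WT, NHL10 by 1.04 and 1.20, and CYP81F2 of indole glucosinolate modification by 0.81 and 1.20, and PAD3 of camalexin synthesis fell by 0.89 in WT.

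The members differed most between the tissues. Between shoots and roots under [nS] 7 of 8 tested members were called in q-lsu-KO and 7 in WT, against a background of 58.7% and 59.2% of all tested genes. Tissue and pool cannot be told apart, and the TMM factors differ between tissues so that CPM without them would be lower in shoots relative to roots by 0.729 on the log2 scale for every gene. FLS2 had 69 counts in q-lsu-KO [dS] shoots and 1 in the matching roots, and 72 and 3 counts in WT [dS]. Under [nS] it had 48 and 1 counts in q-lsu-KO shoots and roots, and 58 and 3 counts in WT shoots and roots. The ratio of FLS2 in CPM was 58.4 in q-lsu-KO [nS] (exact 95% interval 9.99 to 2350, counting error only) and 29.0 in WT [nS] (9.45 to 145).

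RBOHF had 5.40 to 7.51 CPM in q-lsu-KO [nS] shoots, against 38.1 to 53.9 CPM in q-lsu-KO [nS] roots, and 5.14 to 9.65 CPM in WT [nS] shoots, against 41.9 to 52.5 CPM in WT [nS] roots. Its log2 fold change of shoot over root was -2.78 ± 0.22 in q-lsu-KO (edgeR adjusted p = 1.06e-18) and -2.61 ± 0.19 in WT (adjusted p = 2.83e-20). The 3 receptor kinases did not share a pattern: BAK1 was lower in shoots by a log2 fold change of -0.93 ± 0.15 in q-lsu-KO and -0.98 ± 0.14 in WT, and CERK1 likewise (-1.14 ± 0.20 and -1.21 ± 0.18), while SOBIR1 changed sign between the genotypes.

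SOBIR1 was higher in shoots than in roots in q-lsu-KO (0.84 ± 0.20 on the log2 scale, edgeR adjusted p = 7.28e-04) and lower in shoots in WT (-0.82 ± 0.21, adjusted p = 0.0012), the interaction given above. Its root levels, 44.9 to 77.3 CPM in q-lsu-KO [nS] and 62.3 to 75.4 CPM in WT [nS], had means between the shoot means of the genotypes in TMM-scaled CPM. Without the TMM factors shoot over root would be lower by 0.729 on the log2 scale, a shift close in size to the q-lsu-KO value. With upper-quartile scaling, which moved shoot over root by -0.256 in q-lsu-KO, SOBIR1 was at 0.58 there, under the fold threshold. MPK3 was higher in shoots in both genotypes (2.83 ± 0.17 in q-lsu-KO and 1.33 ± 0.18 in WT), BIK1 was lower in shoots (-0.84 ± 0.18 and -1.85 ± 0.18), and RBOHD was not called (0.52 ± 0.20 and -0.47 ± 0.20). RBOHD was called lower in WT shoots with upper-quartile scaling (-0.68, adjusted p = 0.0024 in edgeR) or without replicate 4 of WT shoots (-0.60), and higher in q-lsu-KO shoots with a replicate block (0.76) or without replicate 3 of q-lsu-KO shoots (0.59). Without replicate 1 of q-lsu-KO shoots the BIK1 value in q-lsu-KO was -0.57, under the fold threshold.

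FRK1, the output gene, was too low for a fitted test. It summed to 4 counts in q-lsu-KO [dS] shoots, against 6 in WT [dS] shoots, and to 6 counts in q-lsu-KO [nS] shoots, against 28 in WT [nS] shoots. The WT [nS] libraries held 4, 13, 1 and 10 counts and the q-lsu-KO [nS] libraries 1, 2, 3 and 0, so the groups overlapped (exact permutation test, two-sided, p = 0.114). The WT [dS] libraries held 0, 3, 2 and 1 counts, against the WT [nS] values above (exact permutation p = 0.0571). In roots FRK1 summed to 8 counts in q-lsu-KO [dS], against 16 in q-lsu-KO [nS] (p = 0.114, exact permutation), and to 7 counts in WT [dS], against 21 in WT [nS] (p = 0.0571, exact permutation). The smallest p that 4 against 4 libraries allow is 0.0286, and after adjustment over 12 such tests of FRK1 and FLS2 the smallest was 0.342. A single test at 0.0286 would not by itself pass the adjusted p threshold among 12 tests, so the adjusted values cannot decide for FRK1. Whether FRK1 differed between the genotypes in the shoots in which SOBIR1, BIK1, RBOHD and MPK3 were called is therefore left undecided.

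Over the 8 group means of log2 CPM, the members paired off by tissue pattern. Pearson's r was 0.97 between BAK1 and RBOHF, 0.95 between BAK1 and BIK1, and 0.92 between FLS2 and MPK3, whereas SOBIR1 was closest to RBOHD (0.86) and then to MPK3 (0.78). These are descriptions over 8 points that share libraries and a large tissue contrast. By the same measure the 2 genes most like SOBIR1 were PEN3 (0.991), an ABC transporter of nonhost defense, and EDA39 (0.988). Those most like RBOHD were AT5G62570 (0.99) and AT3G57450 (0.989), those most like MPK3 were AT5G04550 (0.997) and AT1G69840 (0.996), and those most like BIK1 were DWF4 (0.999), an enzyme of brassinosteroid synthesis, and AT2G27080 (0.998). For the receptors they were MEE9 and AT1G10657 for FLS2 (0.999 each), AT4G12735 and AT4G04460 for BAK1 (0.994 each), and AT4G00700 (0.999) and AT1G68300 (0.997) for CERK1, and for RBOHF they were AT4G38540 and AT2G45920 (0.999 each).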

How the data were processed

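RNA of 32 shoot and root samples was turned into 3′ tag libraries with barcoded oligo(dT) primers, molecular identifiers and Tn5. The files deposited by the authors hold raw counts (whole numbers), 1 file a library and 37336 genes. In the submitters' processing notes stand TAIR10, STAR 2.7.8a and DESeq2, whereas the strand setting, how identifiers were collapsed, the release of the annotation and the counter were not given in the sources used here. Library totals bound the precision of low genes.

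Counts were fitted with edgeR 4.0.16 (limma 3.58.1, R 4.3.3): TMM factors, filterByExpr with a minimum count of 10, and a robust quasi-likelihood F-test on 4 group means, with 16 libraries a tissue (all 32 for tissue contrasts). The adjusted p is Benjamini-Hochberg over all tested genes, and p-values are two-sided. SE is the absolute log2 fold change over the root of F. The scripts were tested on simulated data. FLS2 in roots and FRK1 were compared by exact permutation tests. Members were named in every comparison, with up to 4 called genes of each other list by smallest adjusted p and the 2 genes of highest r for each member; LYM3 and CPK11 were added after their values were seen. Members and lists were chosen with earlier results of these data known. Of the gene IDs, 37051 matched the TAIR10.1 annotation. The upstream window of 1 member is not reported here. As alternatives, DESeq2 1.42.0 was run, and the edgeR fit was repeated with upper-quartile or RLE factors, other filters, the adjusted p alone, fits of the compared libraries only, a replicate block and leaving out libraries.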

Additional observations from a re-analysis of the deposited data

Results flagged for a closer look

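Within groups of 4 libraries, 5 of 72 group values of the 9 genes had a library far from the other 3 by Dixon's test, where chance gives about 1 in 20. All 5 were root groups. SOBIR1 had 62.3 CPM in replicate 3 of WT [nS] roots, the lowest of its group, and RBOHF had 46.03 CPM in replicate 4 of q-lsu-KO [dS] roots, the highest. The other 3 rest on few counts: FLS2 had 0.4333 CPM in replicate 3 of q-lsu-KO [dS] roots and 0.8992 CPM in replicate 1 of q-lsu-KO [nS] roots, each a single count beside libraries at 0, and FRK1 had 1.729 CPM in replicate 3 of WT [dS] roots.

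By edgeR's interaction test, a difference between the tissues in the effect of genotype was called for 3 of 8 tested members under each S condition. Of all 17918 tested genes, 1.6% were called higher under [dS] and 1.39% under [nS]. Under [dS] the difference on the log2 scale was 1.06 for SOBIR1, 1.39 for RBOHD and 1.26 for MPK3. Under [nS] it was 1.65 for SOBIR1, 1 for BIK1 and 1.51 for MPK3. RBOHD under [nS] and BIK1 under [dS] were not called. The BIK1 call under [nS] was lost without some single libraries, and the SOBIR1 call under [dS] without replicate 4 of WT roots. The summed touch and early stress genes moved with genotype in the same shoots, at 2469 to 3890 CPM in q-lsu-KO and 182 to 1984 CPM in WT, and their part in these differences was not tested.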

How the results depend on the processing

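Of 32 calls of the 9 genes, 22 kept direction and threshold under every alternative, 10 lost the call under at least 1, and 0 reversed. Of 107 log2 fold changes, 47 lay within 1 SE of 0, and 29 of these changed sign under an alternative without a call. With the adjusted p alone, 3231 genes were called for S in q-lsu-KO shoots and 3395 in WT shoots, 1858 in q-lsu-KO roots and 2156 in WT roots, with 1 member (BAK1) in WT roots, and 52 and 42 for genotype in roots under [dS] and [nS]. Without the filter on low counts these last were 43 and 55, and 22 genes were called for the interaction of genotype and S in roots. With only the compared libraries in the fit, 1 member was called for S in WT shoots. Without both WT shoot libraries numbered 1, 402 genes were called for genotype in [dS] shoots, 2 members in [nS] shoots, and 1 member for S in q-lsu-KO shoots. The cause was not tested.

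Leaving out each library in turn gave 379 to 745 genes for genotype in [dS] shoots and 464 to 862 in [nS] shoots, with 2 to 4 members under [nS], and 1 to 2 members for S in q-lsu-KO shoots. In roots it gave 18 to 46 genes for genotype under [dS] and 17 to 60 under [nS], and 2 to 10 for the interaction with S. For the interaction with tissue under [dS] it gave 218 to 478 genes.

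Replicate numbers did not pair the genotypes: over 16 pairs r of the deviations ran from -0.108 to 0.084, and 2 libraries correlated best with their own number. Across S conditions within a genotype, shoot replicates 1 and 4 went with their own number, at r of 0.179 and 0.196 in q-lsu-KO and 0.248 and 0.331 in WT, whereas replicates 2 and 3 were at 0.029 to 0.069 and root pairs at 0.080 or less, with all 4 WT root pairs best with their own number. Not every pair passed 0.1, so the numbers were not used to pair samples in the main fits. The S effects in shoots were thus tested without what replicates 1 and 4 shared across S conditions. With the replicate block, 7 genes were called for the interaction of genotype and S in roots, and 4 members for the interaction of genotype and tissue under each S condition. RBOHD was then also called between q-lsu-KO shoots and roots. Depth limited FLS2 in roots and FRK1 in both tissues.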
